A study of Mus musculus with 2 samples.

Results

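Six3 is a homeobox gene of the anterior neural plate, and the cells described here were the day 4 cells of mouse eye organoids in which Six3 mRNA was detected with at most 1 of 4 eye field genes. They were chosen from the day 4 matrix by measured counts of unique molecular identifiers (UMIs). A Six3-positive cell had at most 26000 UMIs, at most 5000 genes, 0.5 to 10% of its UMIs from mitochondrial (mt-) genes, fewer than 10 UMIs of the pluripotency gene Dppa5a, 1 or more Six3 UMI, and fewer than 2 of the eye field genes Rax, Pax6, Six6 and Lhx2 detected. The rule found 1117 cells, 12.3% of the 9114 barcodes of day 4, in a series of 16560 barcodes. They were set against the 4978 day 4 cells under the same limits, the eye field limit included, that had 0 Six3 UMIs, called Six3-negative cells below. The Six3-positive cells thus made up 18.3% of 6095 cells (Clopper-Pearson 95% interval 17.4 to 19.3%).

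The organoids were grown from mouse embryonic stem cells heterozygous for a GFP reporter knocked into the Rax locus, an allele that every cell of both groups carried. Cells, labelled as retina progenitors, were taken on culture days 4 and 6, at the eye field stage and at the start of vesicle budding, and each day gave 1 library of a 10x Genomics Chromium 3' v2 kit. Each library pooled 3 biological experiments of this single reporter line with no map from cells to experiments, so there was no replicate and no test. Levels are UMIs of a gene per 1000000 UMIs summed over the cells of a group (CPM), and every 95% interval covers counting error only.

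During gastrulation the epiblast, which expresses Pou5f1, gives rise to the neural plate, and its most anterior part is kept free of Wnt and Nodal signals. There Otx2, Hesx1, Lhx5 and Six3 come on in cells that will form forebrain and eye, and Six3 itself represses Wnt genes. The eye field appears next, within this territory, when Rax, Pax6, Six6 and Lhx2 are added.

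The Six3-positive cells were deeper than the cells they were set against. They held 15839239 UMIs in all, with a median of 13514 UMIs and 3090 genes per cell, while the Six3-negative cells held 57846809 UMIs with medians of 10707.5 UMIs and 2676 genes. Median mitochondrial shares were 3.12% in Six3-positive and 3.07% in Six3-negative cells, and ribosomal protein shares 36.2% and 36.5%. A deeper cell is more likely to show a Six3 UMI. When every cell was thinned to 5000 UMIs, 612 of 5958 cells showed one (10.3%). The libraries shared 91 barcodes, and 7 of the Six3-positive cells bore a barcode also found on day 6.

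Six3 spans positions 85613608 to 85629302 on the plus strand of chromosome 17 (GRCm38, GENCODE), where Six3os1 overlaps it on the other strand. No line of the matrix was named Six3os1, and whether the counting used strand is not given in the sources used here. Most Six3-positive cells held little Six3. Of the 1117 cells, 657 had 1 Six3 UMI, 236 had 2, 103 had 3 and 22 had 7 or more, with 15 as the highest. Their 2078 Six3 UMIs came to 131.2 CPM (125.6 to 137). Among day 4 cells with 10 or more Dppa5a UMIs, which resemble stem cells and should lack Six3, 3.03% of 1584 cells had a Six3 UMI at a median depth of 11993 UMIs, or 1.09% after thinning. That share is taken here as the background for a Six3 UMI, though free RNA was not measured and doublets were not called.

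The eye field genes were rare in the Six3-positive cells, as the rule requires. None of the 4 was found in 868 cells, and 249 cells had 1 of them, which was Lhx2 in 91, Rax in 80, Pax6 in 67 and Six6 in 11. Levels of some genes changed with the number of eye field genes. Lhx5 stood at 31.6 CPM (28.5 to 34.9) in Six3-positive cells with no eye field gene, at 54.6 CPM (47.2 to 62.8) in those with 1, and at 65.0 CPM (49.7 to 83.5) in the 61 cells with 2, which the rule leaves out. Pou5f1 ran the other way over the same 3 steps, at 298.9, 237.4 and 154.5 CPM. Across the limit itself, between cells with 1 and with 2 eye field genes, the Lhx5 intervals overlapped. So did those of Hesx1 (150.9 and 157.7 CPM) and Otx2 (209.7 and 236.6 CPM). At the Dppa5a limit, the 21 Six3-positive cells with 6 to 9 Dppa5a UMIs had Zfp42, a naive pluripotency gene, at 9.81 CPM (2.67 to 25.1), and the 12 cells just outside, with 10 to 13 Dppa5a UMIs, at 87.6 CPM (47.9 to 147).

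Promoter sequence is shown for Ermn, Hesx1 and Shisa2, 3 of the 6 genes with the highest ratio in Six3-positive cells, because these transcripts were higher in the same cells. The sequences are from RefSeq (GRCm38.p6), 250 bases before to 50 after the start of transcription. Ermn lies at chr2:58052815-58053114 on the minus strand, Hesx1 at chr14:27000112-27000411 on the plus strand and Shisa2 at chr14:59625031-59625330 on the plus strand. The Hesx1 stretch surrounds the start of its shorter annotated transcript, inside the gene as given below, which begins farther upstream at 26994416. Capitals mark the octamer ATGCAAAT, the site that POU proteins such as the Pou5f1 product bind.
Ermn: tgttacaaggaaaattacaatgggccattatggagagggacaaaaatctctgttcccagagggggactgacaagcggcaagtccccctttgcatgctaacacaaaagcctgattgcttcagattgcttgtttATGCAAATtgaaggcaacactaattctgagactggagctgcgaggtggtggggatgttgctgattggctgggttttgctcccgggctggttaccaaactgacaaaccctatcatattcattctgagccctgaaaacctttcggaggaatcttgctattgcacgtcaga
Hesx1: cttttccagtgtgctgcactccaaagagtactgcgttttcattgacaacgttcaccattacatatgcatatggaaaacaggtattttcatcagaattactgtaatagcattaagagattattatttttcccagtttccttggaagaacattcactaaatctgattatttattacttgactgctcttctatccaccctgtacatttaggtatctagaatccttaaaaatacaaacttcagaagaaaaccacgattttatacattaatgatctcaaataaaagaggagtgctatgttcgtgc
Shisa2: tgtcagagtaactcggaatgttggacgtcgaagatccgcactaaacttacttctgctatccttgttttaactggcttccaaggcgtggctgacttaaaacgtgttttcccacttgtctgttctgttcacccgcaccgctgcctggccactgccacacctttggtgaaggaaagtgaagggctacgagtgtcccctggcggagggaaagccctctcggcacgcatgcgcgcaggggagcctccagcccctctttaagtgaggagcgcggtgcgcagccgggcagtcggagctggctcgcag
Of the 15 genes with the highest ratio, 11 had promoters in the table, and the octamer, searched on both strands, was found in 1 of these genes, Ermn. It was found in 0 of the 11 genes with promoters among the 15 lowest and in 1.74% of all 32851 promoters. The site TAATCC, which Otx proteins bind, was found for Mest alone among the 11 highest, in 0 of the 11 lowest and in 7.06% of all promoters. A match is a description of the letters only.

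The 3 markers that accompany Six3 were higher in the Six3-positive cells. Lhx5, a LIM homeobox gene of the forebrain (chromosome 5, 120431699 to 120441223), stood at 36.7 CPM (33.8 to 39.9) in Six3-positive and 8.44 CPM (7.70 to 9.22) in Six3-negative cells, a ratio of 4.36. Hesx1, a homeobox repressor needed for the forebrain and pituitary (chromosome 14, 26994416 to 27002329), stood at 118.9 CPM (113.6 to 124.4) and 42.7 CPM (41.1 to 44.5) in the same order, a ratio of 2.78. Otx2, the homeobox gene of the whole anterior head (chromosome 14, 48657677 to 48673819), was at 197.7 CPM (190.8 to 204.7) in Six3-positive cells and 130.8 CPM (127.8 to 133.7) in Six3-negative cells, a ratio of 1.51. Otx2 was thus high in both groups, while Lhx5 was low in Six3-negative cells.

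Shares of cells gave the same order after thinning to 5000 UMIs. Hesx1 was found in 40.6% of Six3-positive cells, 15.9% of Six3-negative cells and 6.58% of Dppa5a-rich cells. Lhx5 was found in 16.4%, 3.84% and 0.639% of the same groups. Otx2 did not separate them in this way, at 60.5% of Six3-positive, 44.1% of Six3-negative and 51.1% of Dppa5a-rich cells. Unthinned, Hesx1 was found in 66.5% and 27.1%, and Lhx5 in 31.9% and 8.22%, of Six3-positive and Six3-negative cells. All 3 markers were found together in 255 of the 1117 Six3-positive cells (22.8%) and in 180 of the 4978 Six3-negative cells (3.62%), and after thinning in 4.06% and 0.701%. None of the 3 was found in 64 Six3-positive cells (5.73%) and in 1254 Six3-negative cells (25.2%).

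The markers above were higher, but they came with the label of anterior neural cells. The cells and lists were also chosen with earlier results of these data known, so these markers do not test the label. General neural genes were mixed, with 7 of 16 measured early neural genes higher (named below). Sox1 and Sox3 were not among the 16, because their mean over the groups lay under 10 CPM, and they were not higher. Sox1, the classical marker of committed neural plate, had 83 UMIs in Six3-positive and 315 in Six3-negative cells, 5.24 and 5.45 CPM, a ratio of 0.962 (0.746 to 1.23). Sox3 had a ratio of 0.943 (0.769 to 1.15). Epiblast transcripts were still abundant in Six3-positive cells, with Pou5f1 at 285.1 CPM (276.8 to 293.5) against 351.3 CPM (346.5 to 356.2) in Six3-negative cells, Dnmt3b at 576.7 against 604.2 CPM, and Pim2 at 403.8 against 381.0 CPM. Pou5f1 was found in 72.2% (69.5 to 74.8%) of Six3-positive and 78.4% (77.2 to 79.5%) of Six3-negative cells after thinning, and in 91.4% and 91.5% without it. The cells are therefore called by their rule, Six3-positive, in what follows.

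Across all genes the groups, as split by detection of Six3, differed little. At a mean of 10 CPM or more over the groups, 6472 genes were measured, 92.4% of them less than 0.32 from 0 on the log2 scale, and the median log2 ratio was 0.04. A gene is called higher or lower here when its log2 ratio was at least 0.32 either way and its 95% interval left out 1. This is a rule of size in 1 library and no test, and the genes that chose the cells stay out of every count. By it 229 genes were higher (3.54% of those measured) and 261 were lower (4.03%) in Six3-positive cells. Counts for the lists below are to be read beside these shares. Dividing every ratio by the median ratio changed the split to 158 higher and 350 lower. After thinning, a Six3 UMI remained in 55.2% of Six3-positive cells, so the Six3-negative cells can include cells whose Six3 mRNA was missed. Whether such cells made the differences between the groups smaller was not tested.

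The gene with the highest ratio was Ermn, which encodes ermin, a cytoskeletal protein known from the myelin of oligodendrocytes. It was at 21.8 CPM (19.5 to 24.2) in Six3-positive and 4.84 CPM (4.29 to 5.44) in Six3-negative cells, a ratio of 4.50. After thinning it was found in 10.9% of Six3-positive, 2.33% of Six3-negative and 0.128% of Dppa5a-rich cells. Lhx5 and Hesx1 came next. Irs4, an adaptor of insulin and IGF receptors, was at 24.1 and 8.83 CPM in Six3-positive and Six3-negative cells (ratio 2.73), and Coch, which encodes the matrix protein cochlin, at 24.7 and 9.06 CPM (2.73). Shisa2, which holds back Wnt and FGF receptors in the endoplasmic reticulum, was at 83.0 and 34.1 CPM (2.43).

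The other 9 of the 15 highest genes joined transcription factors to receptors. Mest, an imprinted gene expressed from the paternal allele, had the highest level of them, at 445.7 CPM (435.4 to 456.2) in Six3-positive and 211.7 CPM (208.0 to 215.5) in Six3-negative cells, a ratio of 2.11. Sall3, a zinc finger gene, had a ratio of 2.17, and the forkhead gene Foxd4, which acts early in neural ectoderm, 1.97. Id1 and Id2, targets of BMP signals that block basic helix-loop-helix proteins, had ratios of 2.05 and 2.09. The receptors Ephb1 and Epha7 of ephrin signalling and Fzd5 of Wnt signalling, the last needed for eye development, had ratios of 2.02, 1.95 and 1.84. Greb1l, a coactivator in retinoic acid signalling, had a ratio of 2.01.

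**Figure D1:**
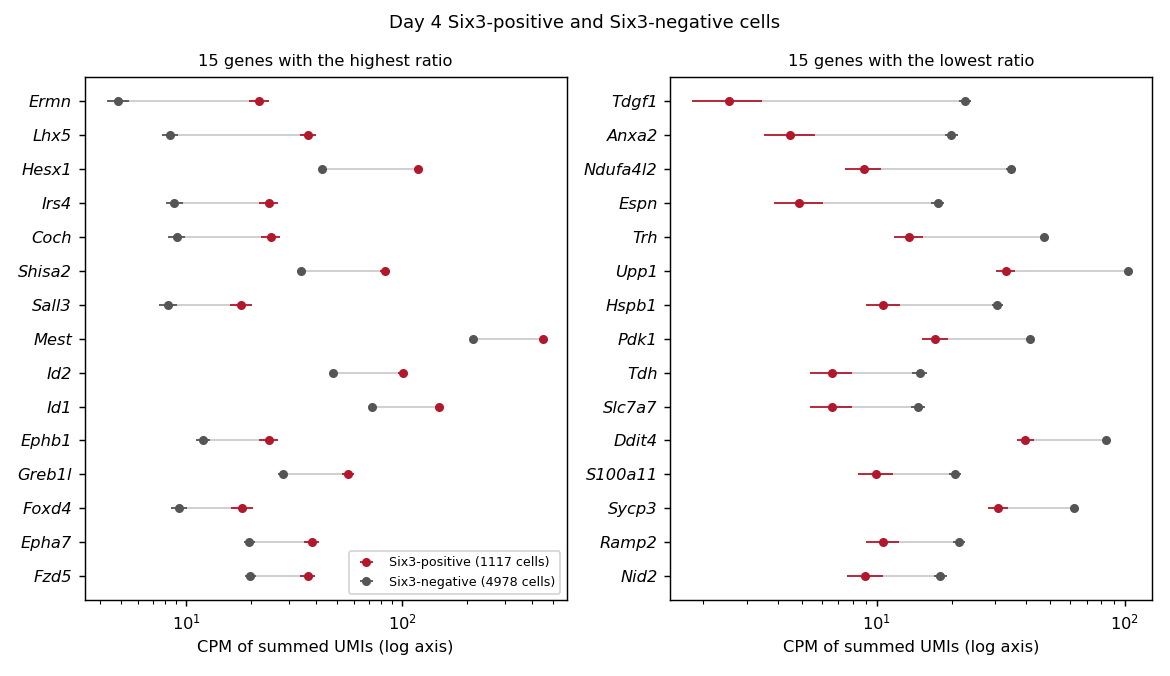
CPM (log axis) of 15 genes at the top of the ratios and 15 at the bottom, in Six3-positive (red) and Six3-negative (grey) day 4 cells, with exact Poisson 95% intervals. Ermn and Lhx5 lie farthest apart on the left, at ratios of 4.50 and 4.36, and Tdgf1 on the right, at 0.112.

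Most measured genes listed for the anterior neural plate were higher. Of 18 factors listed, 7 were measured, 6 of these were higher and 0 lower, and their median log2 ratio was 0.84 beside 0.04 for all genes. Among all measured genes 3.54% were higher and 4.03% lower. Beyond Lhx5, Hesx1, Foxd4 and Otx2 the higher ones included Gli3, the repressor that opposes Hedgehog signals, at 37.6 and 20.9 CPM in Six3-positive and Six3-negative cells (ratio 1.80). Zic5 was the exception, at 63.7 and 65.6 CPM (0.971). Among the higher ones, Lhx5, Hesx1 and Otx2 are the markers that came with the label. Lhx5 (8.44 CPM) and Foxd4 (9.25 CPM) lay under 10 CPM in Six3-negative cells. They were measured only through their level in Six3-positive cells. Median and counts describe lists chosen with results of these data known, and they do not test the label.

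Forebrain genes under the level limit were higher too, and they are named with their values in view. Fezf2, a zinc finger gene of the forebrain, had 252 UMIs in 173 Six3-positive cells and 194 UMIs in 153 Six3-negative cells, 15.9 and 3.35 CPM, a ratio of 4.74 (3.92 to 5.75). Its relative Fezf1 had 55 UMIs in 45 Six3-positive and 23 UMIs in 23 Six3-negative cells, a ratio of 8.73 (5.28 to 14.9). Both were rarer in Dppa5a-rich cells, at 0.379% and 0.253% of cells for Fezf2 and Fezf1. Pax2, which marks optic stalk and midbrain, had 55 and 52 UMIs in Six3-positive and Six3-negative cells (ratio 3.86, 2.60 to 5.76), of which 1 Six3-positive cell held 8. Sp8, of the anterior neural ridge, had 73 and 127 UMIs (2.10, 1.55 to 2.82).

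Wnt antagonists and other anterior signalling genes followed. Of 19 listed, 8 were measured, 5 were higher and 0 lower (median log2 ratio 0.48), beside 3.54% higher among all measured genes. Secreted Sfrp1, which binds Wnt proteins, was at 115.1 and 76.9 CPM in Six3-positive and Six3-negative cells, and the nuclear effector Tcf7l2 at 31.4 and 18.8 CPM (1.67). Fzd8 had a ratio of 1.30, while Sfrp2 (1.06), Tcf7l1 (1.23) and Lef1 (0.932) stayed within the limits. Frzb, another secreted Wnt antagonist, lay under the limit of measurement with 212 and 270 UMIs (ratio 2.87, 2.38 to 3.45). The antagonist Dkk1, also under it, had 24 and 77 UMIs and an interval around 1 (1.14, 0.688 to 1.82). The feedback targets of Wnt signalling Axin2 (1.02, 0.744 to 1.37) and Nkd1 (0.975, 0.702 to 1.33) had few UMIs and intervals around 1.

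Early neural genes were mixed. Of 30 listed, 16 were measured, 7 were higher and 1 lower (median log2 ratio 0.30), beside 3.54% higher among all measured genes. The cyclin gene Ccnd2 (29.6 and 16.2 CPM in Six3-positive and Six3-negative cells, ratio 1.83), the N-cadherin gene Cdh2 (23.9 and 14.2 CPM, 1.69) and the growth factor gene Ptn (1.43) led. Sox11 was at 201.7 and 146.7 CPM (1.38) and Sox2, which epiblast and neural plate share, at 135.0 and 101.7 CPM (1.33). Hmga2 (1.356) and Msi1 (1.305) were the other higher ones. Nes, the intermediate filament gene of neural progenitors, was lower, at 13.3 and 17.9 CPM (0.742). Pou3f1, an early neural POU gene, was at 42.0 and 49.2 CPM (0.854), within the limits. The 4 measured neuron markers, Tubb3, Elavl3, Stmn2 and Gap43, all lay within them.

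Signalling genes with a role in neural induction moved in more than 1 direction. Of 14 BMP and Id genes 5 were measured and 4 were higher (median log2 ratio 0.48), which were Id1, Id2, Id3 (297.1 and 213.1 CPM in Six3-positive and Six3-negative cells, ratio 1.39) and the BMP decoy receptor Bambi (1.26). Among 7 measured genes of FGF signalling, 2 were higher and 3 lower. For both lists the shares among all measured genes were 3.54% higher and 4.03% lower. The receptors Fgfr2 (52.1 and 30.0 CPM, ratio 1.74) and Fgfr1 (114.9 and 75.4 CPM, 1.52) were higher, whereas the feedback genes Etv5 (0.678) and Spry2 (0.783) and the ligand Fgf5 (0.719) were lower. The other measured feedback genes, Dusp4 (1.13, 1.02 to 1.26) and Spred1 (1.18, 1.03 to 1.35), had ratios above 1 and stayed within the limits. The 3 measured Notch genes, Notch2, Hes1 and Hes5, stayed within the limits.

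**Figure D2:**
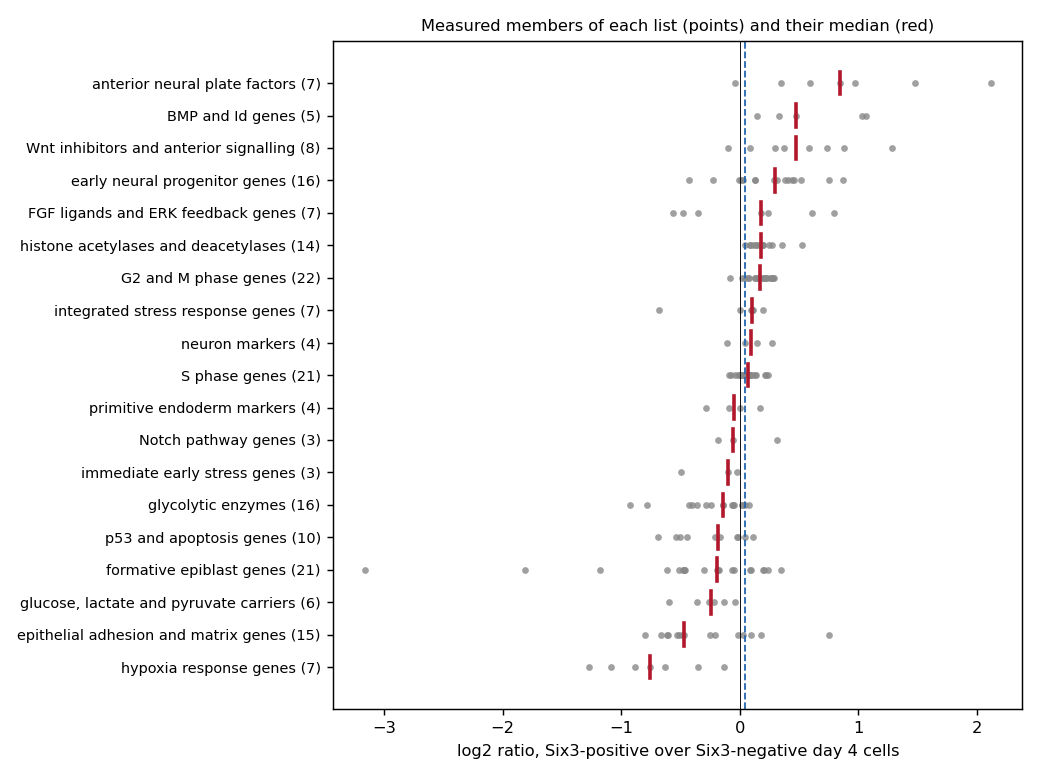
Log2 ratios of Six3-positive over Six3-negative day 4 cells for the measured genes of each list with 3 or more (grey points; their number in brackets) and the list median (red bar); the dashed line is the median of all measured genes, 0.04. Anterior neural plate factors have the highest median, 0.84, and hypoxia response genes the lowest, -0.76.

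The genes lowest in Six3-positive cells were led by Tdgf1, which encodes Cripto, the co-receptor of Nodal. It had 40 UMIs in Six3-positive and 1310 in Six3-negative cells, 2.53 CPM (1.80 to 3.44) and 22.7 CPM (21.4 to 23.9), a ratio of 0.112 (0.0793 to 0.153). Trh, the precursor of thyrotropin-releasing hormone, was at 13.5 and 47.2 CPM (0.285), and Upp1, uridine phosphorylase, at 33.0 and 102.7 CPM (0.322). Anxa2 (0.224), Ndufa4l2 (0.255), Espn (0.277), Hspb1 (0.346), Pdk1 (0.415), Tdh (0.441), Slc7a7 (0.447), Ddit4 (0.470), S100a11 (0.479), Sycp3 (0.493), Ramp2 (0.493) and Nid2 (0.498) made up the rest. They include a small heat shock protein gene (Hspb1), the threonine dehydrogenase gene of pluripotent cells (Tdh) and genes that low oxygen induces (Ndufa4l2, Pdk1, Ddit4).

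All 15 of these genes had a higher level in the Dppa5a-rich cells than in either group. Tdgf1 was at 382.9 CPM there, Upp1 at 684.2 CPM, Hspb1 at 513.9 CPM and Tdh at 121.5 CPM. Of 21 naive pluripotency genes only Mkrn1 was measured, and it was lower, at 219.7 CPM in Six3-positive and 368.9 CPM in Six3-negative cells (ratio 0.596). The 21 genes summed to 255.0 and 441.6 CPM in the same order, most of it Mkrn1, and none was at 0. Under the limit, Klf2 (0.268, 0.193 to 0.365) and Nanog (0.498, 0.393 to 0.624) had ratios below 1, whereas Klf4 (0.777, 0.554 to 1.07), Tfcp2l1 (0.863, 0.433 to 1.60) and Nr0b1 (1.14, 0.751 to 1.69) had intervals around 1. Dppa5a itself, at 63.2 and 135.6 CPM, helped to choose the cells. In cells of both groups with 0 Dppa5a UMIs, a comparison chosen after the data were seen, the ratio was 0.179 for Tdgf1, 0.253 for Trh, 0.372 for Upp1, 0.696 for Hspb1 and 0.688 for Tdh, and Lhx5 and Hesx1 stood at 3.66 and 2.31. Tdgf1, Anxa2, Espn, Tdh and Slc7a7 then had a mean level under 10 CPM and left the counts.

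Most epiblast genes were lower or within the limits. Of 28 genes listed as formative epiblast, 21 were measured, 9 were lower and 1 higher (median log2 ratio -0.19). Lower calls made up 4.03% of all measured genes. Fgf5 was at 143.6 CPM (137.8 to 149.7) in Six3-positive and 199.8 CPM (196.1 to 203.4) in Six3-negative cells (ratio 0.719), and Utf1, a chromatin protein gene of pluripotent cells, at 159.8 and 244.6 CPM (0.653). Pou5f1 (0.811), Dnmt3b (0.955), Dnmt3a (0.880) and Pim2 (1.06) were within the limits. Lin28a, which blocks let-7 maturation, was the higher one, at 192.2 and 150.7 CPM (1.28).

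Adhesion genes of the epithelial epiblast were among the lower ones, and cadherins went opposite ways. Of 18 adhesion and matrix genes 15 were measured, 8 were lower and 1 higher (median log2 ratio -0.47). Among all measured genes 4.03% were lower and 3.54% higher. The E-cadherin gene Cdh1 was at 65.5 CPM (61.6 to 69.6) in Six3-positive and 90.7 CPM (88.2 to 93.1) in Six3-negative cells (ratio 0.723), whereas Cdh2 was the 1 that was higher. Epcam (157.1 and 224.5 CPM) and the claudin genes Cldn3 (0.575), Cldn7 (0.631) and Cldn6 (0.655) of tight junctions were lower. Of the laminin chains, Lama5 (0.659) and Lamc1 (0.712) were lower. The keratin genes Krt8 (0.793) and Krt18 (0.727), the only measured members of 13 surface ectoderm genes, were lower as well. Without cells holding 3 or more Dppa5a UMIs the median of the adhesion genes was -0.22.

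The study asked about glucose uptake and glycolysis in eye organoids, and these genes are given here. Of 17 glycolytic enzyme genes 16 were measured, 0 were higher and 5 lower, and their median log2 ratio was -0.14 beside 0.04 for all genes. Lower calls made up 4.03% of all measured genes. Ldha, the lactate dehydrogenase subunit that favours lactate, was at 2132 CPM (2109 to 2155) in Six3-positive and 2197 CPM (2185 to 2209) in Six3-negative cells, a ratio of 0.970. Ldhb, the other subunit, was lower, at 183.4 and 243.0 CPM (0.755). The others that were lower were Pfkp (0.527), Aldoc (0.580), Pgk1 (0.745) and Aldoa (0.778). Gapdh (1.03), Pkm (0.961), Eno1 (0.958), Hk2 (1.02) and Pgam1 (0.906) stayed within the limits, as did Tpi1 (0.823), Gpi1 (0.846), Pfkl (0.909), Pfkm (1.01) and Eno3 (1.05). Hk1, the other hexokinase gene, had too few UMIs to be measured (117 in Six3-positive and 381 in Six3-negative cells, ratio 1.12, 0.904 to 1.38). Gapdh and Pgk1 have processed pseudogenes, so reads of these genes may have been split or dropped in counting.

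Both glucose transporters were lower in Six3-positive cells. Slc2a1, the GLUT1 gene, was at 295.2 CPM (286.8 to 303.8) in Six3-positive and 447.2 CPM (441.8 to 452.7) in Six3-negative cells, a ratio of 0.660. Slc2a3, the GLUT3 gene, was at 237.6 CPM (230.0 to 245.3) and 305.0 CPM (300.5 to 309.5) in the same order, a ratio of 0.779. The lactate carriers Slc16a1 (0.975) and Slc16a3 (0.858), their partner Bsg (0.838) and the pyruvate carrier gene Mpc2 (0.913) stayed within the limits. Mpc1 (108 and 488 UMIs) and Slc16a7 (3 and 15 UMIs) were not measured. Without Dppa5a-bearing cells the ratios were 0.665 for Slc2a1 and 0.798 for Slc2a3.

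Genes that hypoxia induces were lower together with the transporters. Of 14 listed, 7 were measured, 6 were lower and 0 higher, and the median log2 ratio was -0.76. The share of lower calls among all measured genes was 4.03%. Pdk1, which keeps pyruvate out of mitochondria, was at 17.2 and 41.4 CPM in Six3-positive and Six3-negative cells (ratio 0.415), Ddit4, an inhibitor of mTORC1, at 39.6 and 84.2 CPM (0.470), P4ha1 at 7.77 and 14.3 CPM (0.543) and Bnip3 at 84.3 and 142.6 CPM (0.591). Egln1 (0.645) and Higd1a (0.786) were lower, and Kdm3a (0.912) was not. Vegfa, under the limit of measurement, had 108 and 504 UMIs (0.783, 0.630 to 0.965). The median stayed at -0.76 in cells with 0 Dppa5a UMIs.

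Chromatin and cell cycle genes differed little between the groups taken whole. Of 17 histone acetylases and deacetylases 14 were measured, and Hdac6 (43.3 and 30.0 CPM in Six3-positive and Six3-negative cells, ratio 1.44) and Sirt1 (1.28) were higher, with 0 lower. Higher calls made up 3.54% of all measured genes. Hdac1 (1.15), Hdac2 (1.08) and Ep300 (1.03) were within the limits. All 21 measured S phase genes and all 22 measured G2 and M phase genes stayed within the limits, with medians of 0.07 and 0.17. Split by Six3 UMIs, the G2 and M phase median was 0.10 with 1, 0.18 with 2 and 0.33 with 3 or more. Depth grew along these classes as well, and its part was not tested. Within day 6 the G2 and M phase median with Six3 was 0.31, beside 0.02 for all measured genes. The S phase median was -0.021 in cells with 0 Dppa5a UMIs.

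Markers of other cell types were mostly low, and a few differed between the groups. Of 12 primitive streak and mesoderm genes 0 were measured, their summed level was 6.57 CPM in Six3-positive and 7.02 CPM in Six3-negative cells, and Mesp1, Evx1, Msgn1 and Hand1 were at 0 in Six3-positive cells. Of 14 primitive endoderm genes 4 were measured and none passed the size limit, with summed levels of 199.8 and 209.4 CPM and Sox7 at 0. Their median log2 ratio of -0.04 had no stable sign, at -0.36 under the cell filter of the study, -0.53 with 2 or more Six3 UMIs, 0.36 after thinning and 0.49 with fewer than 3 Dppa5a UMIs. Surface ectoderm genes summed to 93.0 and 119.7 CPM with Wnt6 at 0, neural crest genes to 35.9 and 29.2 CPM with Tfap2b at 0, and neuron genes to 258.8 and 258.5 CPM with Neurog1 at 0. Of neural crest genes, Sox9 was higher (15.7 and 9.54 CPM, ratio 1.64), a gene that early neural and otic progenitors also use, and among surface ectoderm genes Krt8 and Krt18 were lower, as given above. Of the neuron genes under the limit, Neurog2 had 27 and 25 UMIs in Six3-positive and Six3-negative cells (ratio 3.94, 2.20 to 7.09) and Elavl4 19 and 36 UMIs (1.93, 1.04 to 3.45). Neurod1 went the other way, with 9 and 96 UMIs in the same order (0.342, 0.152 to 0.678). The part of any of these markers in the results was not tested.

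Within the Six3-positive cells, several anterior genes were higher where there were more Six3 UMIs. Against 8.44 CPM in cells with 0 Six3 UMIs, Lhx5 stood at 26.7 CPM (23.4 to 30.3) with 1, 40.2 CPM (33.7 to 47.5) with 2 and 58.6 CPM (50.9 to 67.1) with 3 or more. Hesx1 went through 42.7, 105.6, 120.5 and 150.7 CPM over the same 4 classes, Ermn through 4.84, 16.2, 20.2 and 37.1 CPM, and Otx2 through 130.8, 181.8, 198.7 and 236.1 CPM. Each of these genes had its highest level in the class richest in Six3. Median depth grew along the classes as well, at 10707.5, 12810, 13983.5 and 15732 UMIs, and its part in the trend was not tested. Not every gene kept this order. Foxd4 stood at 9.25, 17.7, 13.4 and 24.0 CPM, Epha7 at 19.6, 36.9, 36.9 and 42.7 CPM and Sox1 at 5.45, 5.96, 5.35 and 3.35 CPM, and the median log2 ratio of the anterior factors was 0.68 with 1 Six3 UMI and 0.60 with 2.

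The epiblast genes split into 2 kinds along the same classes. Pou5f1 stood at 351.3, 304.4, 288.8 and 233.5 CPM with 0, 1, 2 and 3 or more Six3 UMIs, and Fgf5 at 199.8, 155.4, 139.8 and 118.0 CPM. Dnmt3b (604.2, 578.3, 581.8 and 568.1 CPM) and Pim2 (381.0, 402.4, 405.7 and 405.4 CPM) stayed nearly level. Utf1 stood at 244.6, 161.6, 173.7 and 142.3 CPM, with no decline from 1 to 2 Six3 UMIs. Upp1 stood at 102.7, 40.0, 29.5 and 19.0 CPM and Slc2a1 at 447.2, 310.6, 314.4 and 239.1 CPM, with the largest step for both between 0 and 1 Six3 UMI. Ldha stood at 2197, 2177, 2085 and 2065 CPM. The median log2 ratio of the hypoxia genes against Six3-negative cells was -0.65, -0.68 and -1.07 with 1, 2 and 3 or more Six3 UMIs.

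**Figure D3:**
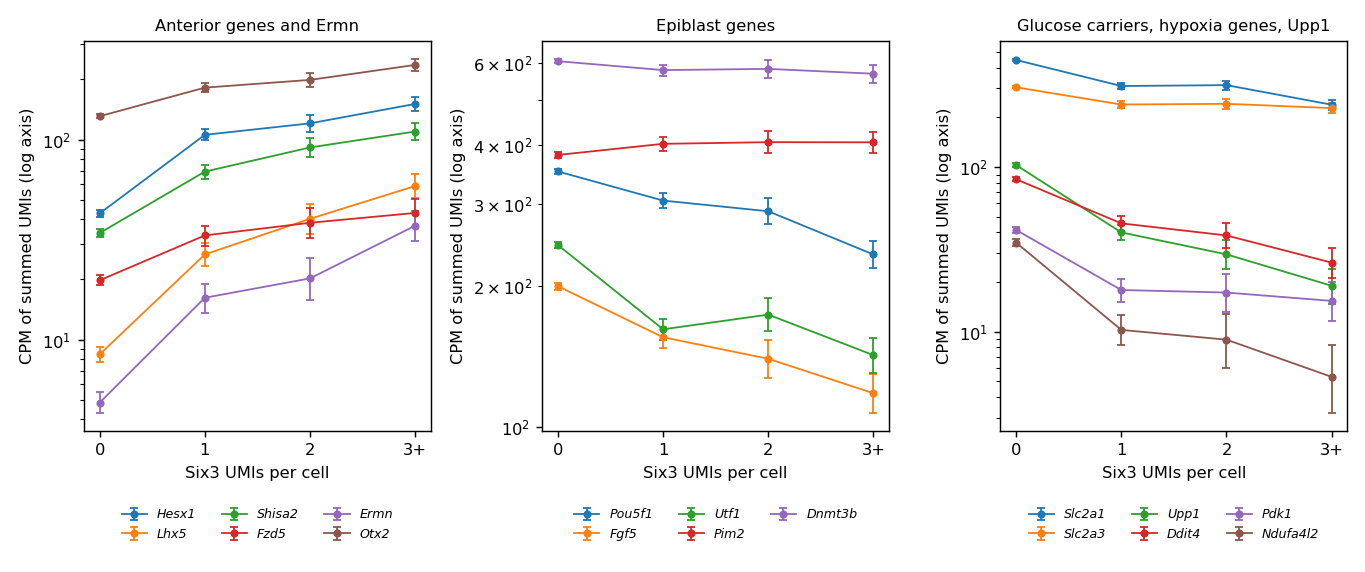
CPM (log axis) with exact Poisson 95% intervals by Six3 UMIs per cell in day 4 cells (4978, 657, 236 and 224 cells) for anterior genes and Ermn, epiblast genes, and glucose carriers with hypoxia genes and Upp1. Lhx5 climbs to 58.6 CPM, Pou5f1 declines to 233.5 CPM and Dnmt3b stays between 568.1 and 604.2 CPM.

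The same cells were also ordered by their epiblast genes. For this, Six3-positive and Six3-negative cells were put together, thinned to 5000 UMIs, and binned by the summed UMIs of Pou5f1, Utf1, Fgf5, Pim2 and Dnmt3b, which is a range of a score and not a cell type. From the bin with 0 to 5 epiblast UMIs (1377 cells) through bins of 6 to 7, 8 to 9 and 10 to 12 to that with 13 to 27 (863 cells), Six3 was found in 14.4%, 12.2%, 10.2%, 7.70% and 5.56% of cells. Hesx1 was found in 25.4%, 23.7%, 21.1%, 17.8% and 11.8%, and Lhx5 in 8.93%, 7.45%, 6.16%, 4.46% and 2.90%. Otx2 did not decline, at 44.2%, 46.2%, 47.8%, 49.1% and 49.0%. Unthinned depth was 10639 UMIs at the median of the lowest bin and 11999 UMIs at that of the highest. The score itself overlapped widely, with a median of 7 (quartiles 5 and 10) in Six3-positive and 8 (6 and 11) in Six3-negative cells.

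**Figure D4:**
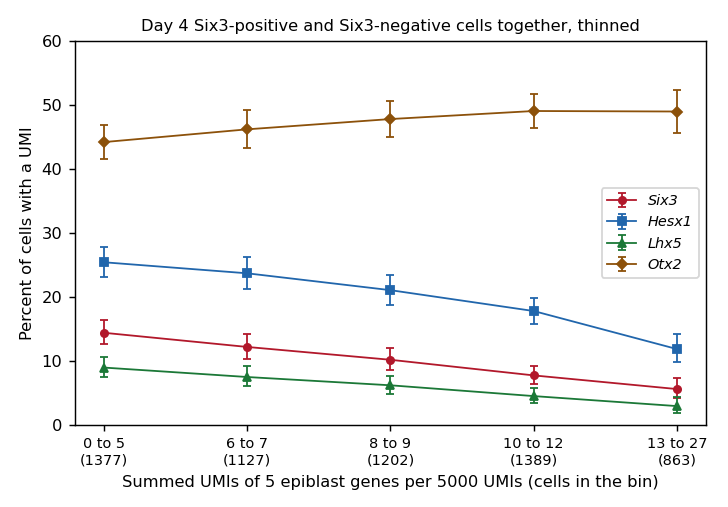
Percent of day 4 cells with a UMI of Six3, Hesx1, Lhx5 or Otx2, with Clopper-Pearson 95% intervals, in 5 bins of the summed UMIs of 5 epiblast genes, after thinning every cell to 5000 UMIs. Six3 declines over the bins to 5.56% while Otx2 stays between 44.2% and 49.1%.

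The 85 day 4 cells with Six3 and 2 or more eye field genes had less mRNA of the epiblast genes Pou5f1, Fgf5 and Utf1. They had more mRNA of Mest, Lhx5, Ermn and Cdh2. In Six3-positive cells and then the eye field cells, Pou5f1 was at 285.1 and 135.1 CPM (ratio 2.11, 1.81 to 2.47), Fgf5 at 143.6 and 67.5 CPM (2.13) and Utf1 at 159.8 and 73.8 CPM (2.17). Mest was at 445.7 and 1157 CPM (0.385), Lhx5 at 36.7 and 65.2 CPM (0.563), Ermn at 21.8 and 48.9 CPM (0.445) and Cdh2 at 23.9 and 45.0 CPM (0.531). Other genes did not separate them beyond counting error. Coch (1.10, 0.751 to 1.66), Otx2 (0.893, 0.791 to 1.01), Epha7 (0.911, 0.689 to 1.23) and Slc2a1 (1.02, 0.917 to 1.14) had intervals that took in 1.

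Day 6 cells with Six3 under the same limits on depth, mt- and Dppa5a, 3291 in number, had another profile. They were chosen with no limit on eye field genes, and day and library cannot be told apart. Pou5f1 was at 285.1 CPM in the day 4 Six3-positive cells and 2.58 CPM in the day 6 cells, Hesx1 at 118.9 and 18.4 CPM, Foxd4 at 18.2 and 1.56 CPM and Coch at 24.7 and 2.61 CPM. Mest (445.7 and 1951 CPM), Shisa2 (83.0 and 181.0 CPM) and Cdh2 (23.9 and 107.5 CPM) were lower on day 4. Slc2a1 was at 295.2 and 311.7 CPM (ratio 0.947) and Ldha at 2132 and 1737 CPM (1.23).

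Within the day 6 library some of these genes went with Six3 and others did not. There Six3-positive over Six3-negative cells gave ratios of 2.79 for Fzd5 (17.7 and 6.35 CPM), 2.13 for Shisa2 (181.0 and 84.9 CPM), 1.53 for Hesx1 (18.4 and 12.0 CPM) and 1.30 for Otx2. Lhx5 had a ratio of 0.952 (0.854 to 1.06), at 17.5 and 18.3 CPM, and Id1 one of 0.955. Upp1 (0.214), Trh (0.313) and Nid2 (0.402) were lower with Six3 on day 6 as on day 4, while Pdk1 had a ratio of 0.955 and Slc2a1 of 0.905. The difference between the days was not tested.

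**Figure D5:**
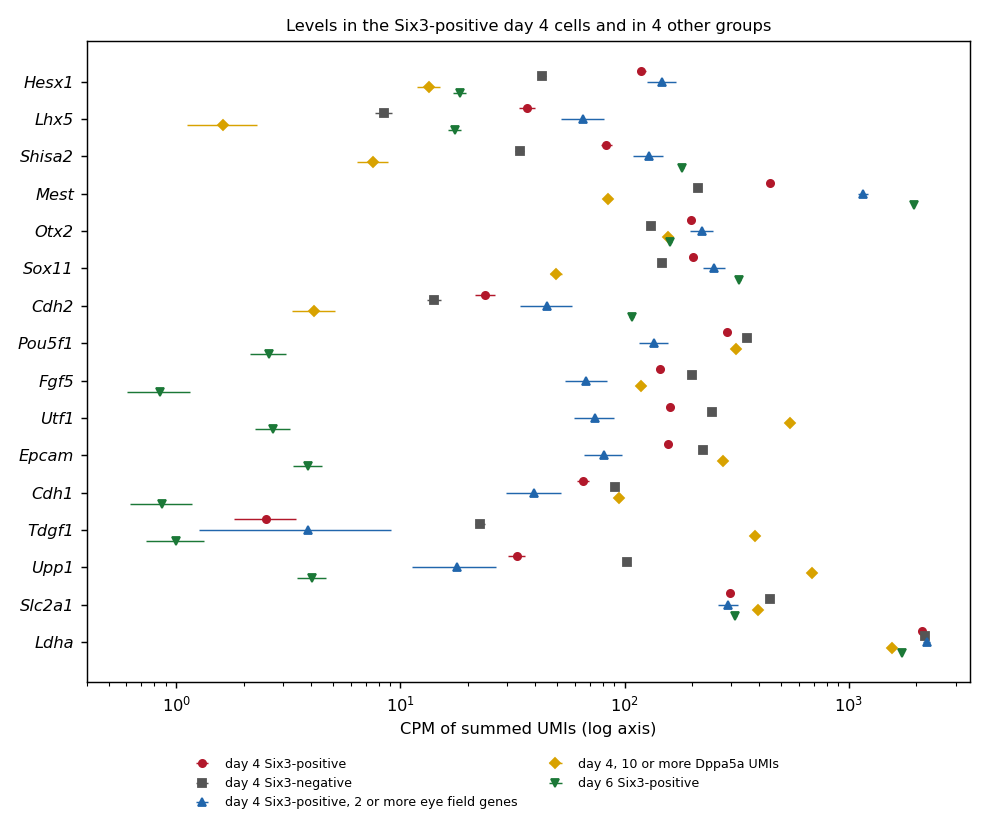
CPM (log axis) with exact Poisson 95% intervals of 16 genes in day 4 Six3-positive cells (red circles), day 4 Six3-negative cells (grey squares), day 4 Six3-positive cells with 2 or more eye field genes (blue), day 4 cells with 10 or more Dppa5a UMIs (yellow) and day 6 Six3-positive cells (green). Pou5f1 lies at 285.1 CPM in the red group and 2.58 CPM in the green, and Tdgf1 at 382.9 CPM in the yellow group alone stands far above the rest.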

How the data were processed

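UMI counts per gene and cell barcode were deposited by the authors as 1 matrix per day, aligned to mm10 and not normalized. Cells had been dissociated with papain. Cell Ranger 2.0.1 and Seurat 2.3.4 are given in the processing notes of the submitters, while the study's methods name other versions. The matrices listed 27998 genes, and the libraries held 132839267 (day 4) and 117346835 (day 6) UMIs. Of the day 4 barcodes 7812 passed the limits on UMIs, genes and mt- share and 6228 also that on Dppa5a; 960 barcodes exceeded the UMI limit. The members and lists were chosen with earlier results of these data known.

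UMIs were summed over cells and divided by the group total (CPM), with exact Poisson 95% intervals for levels, exact conditional binomial ones for ratios and Clopper-Pearson ones for shares (Python 3.11.15, numpy 2.4.6, scipy 1.17.1). Molecules are counted, not cells as replicates, so no p-value was computed. The comparison step was tested on simulated data. Thinning to 5000 UMIs left out 9 Six3-positive and 128 Six3-negative cells. Doublets were not called and stay in, and free RNA was not removed. Named genes were taken from the 4 markers, the study's panel, the 15 highest and 15 lowest ratios (without rule genes, unnamed gene models and genes of mitochondria, haemoglobin or ribosomal proteins), up to 4 members of each list by size of log2 ratio and the glycolysis and carrier genes. Any other gene was picked with its values in view. The alternatives were other limits on cells, depth weighting, thinning, other totals, centring and other thresholds of size.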

Additional observations from a re-analysis of the deposited data

Results flagged for a closer look

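Epha7, an ephrin receptor gene of the developing neural plate, went with Six3 in opposite ways on the 2 days. On day 4 it was at 38.2 CPM in Six3-positive and 19.6 CPM in Six3-negative cells, a ratio of 1.95 (1.76 to 2.15). On day 6 it was at 23.8 CPM in Six3-positive and 38.9 CPM in Six3-negative cells, a ratio of 0.611 (0.563 to 0.664). The day 4 groups were limited to fewer than 2 eye field genes and the day 6 groups were not. The difference between the days was not tested, and with 1 library per day the day and the library cannot be told apart.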

How the results depend on the processing

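No paired analysis was possible because each day had 1 library. The counts of 229 higher and 261 lower genes depended on where size was set. They were 36 and 77 at 1.5-fold, and 32 and 53 at a mean of 50 CPM or more. With 2 or more Six3 UMIs 519 genes were higher, of which 212 were among the 229, and after thinning 411, of which 135 were. With totals lacking mt- and ribosomal protein genes 412 genes were lower, the 261 included, among 7768 then measured. Centring gave 158 higher and 350 lower genes. The median of the anterior factors was 1.03 with 2 or more Six3 UMIs and 0.60 at 50 CPM, that of the hypoxia genes -0.88 with 2 or more Six3 UMIs and -0.67 with fewer than 3 Dppa5a UMIs, and that of glycolytic enzymes -0.22 after thinning. The S phase median turned to -0.021 with 0 Dppa5a UMIs. Of 408 ratios of 34 named genes under 12 alternatives, 0 changed direction and 87 left the counting interval. Of 33 named genes past the size limit, 28 stayed past it in all 12, and the other 5 were lower genes whose mean sank under 10 CPM. The cause of these shifts was not tested. Precision rests on 15839239 UMIs in 1117 cells of 1 library, and differences between experiments could not be seen.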

Other observations

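Genes of the midbrain, neural border and placodes were rare, yet some had a higher CPM in Six3-positive cells and others a lower one. Wnt1, a signal of the midbrain and dorsal neural tube, had 29 UMIs in 22 Six3-positive cells and 21 in 18 Six3-negative cells (ratio 5.04, 2.78 to 9.30), and 1 Six3-positive cell held 7 of them. Pax3, of the dorsal neural tube and border, had 33 and 37 UMIs (3.26, 1.97 to 5.35), and Pax5, of the midbrain, 27 and 34 UMIs (2.90, 1.68 to 4.95). Tfap2a (3.75, 2.31 to 6.11), Dlx5 (3.65, 2.11 to 6.33) and Msx2 (2.69, 1.79 to 4.03), which mark the border and surface ectoderm, were found in 2.87%, 2.33% and 3.85% of Six3-positive and 0.723%, 0.522% and 1.09% of Six3-negative cells. Other genes of the posterior, border and surface lists had intervals below 1. They were Krt19 (51 and 419 UMIs, ratio 0.44, 0.33 to 0.60), Gbx2 (14 and 107 UMIs, 0.478, 0.253 to 0.837) and Ets1 (14 and 106 UMIs, 0.482, 0.255 to 0.85). The 20 posterior neural genes together came to 16.1 and 10.6 CPM, with Hoxb2, Cdx1 and Cdx4 at 0 in Six3-positive cells. Hoxb2 had 22 UMIs in Six3-negative cells. These shares were not thinned, and Six3-positive cells were the deeper ones.

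Some stress genes were lower. Of 10 measured p53 and apoptosis genes 4 were lower in Six3-positive cells, among them the cell cycle inhibitor Cdkn1a (10.8 and 17.4 CPM in Six3-positive and Six3-negative cells, ratio 0.620) and the BH3 gene Pmaip1 (29.4 and 41.8 CPM, 0.704). Of 7 measured genes of the integrated stress response Ddit3 was lower (0.623), and Atf4 (1.08) and Asns (1.08) were within the limits. Of 3 measured immediate early genes Jund was lower (0.708). The share called lower among all measured genes was 4.03%. Under the limit, Nupr1 had 70 and 676 UMIs in Six3-positive and Six3-negative cells (0.378, 0.291 to 0.484) and Hspa1a 14 and 126 UMIs (0.406, 0.216 to 0.707).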
